A study of Mus musculus with 4 samples.

Results

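Glycolysis and glucose uptake were described through 10 genes listed by symbol, with no threshold on their values but with earlier results of these data known: *Slc2a1*, *Hk1*, *Hk2*, *Pfkl*, *Pfkp*, *Pfkfb3*, *Aldoa*, *Pgk1*, *Pkm* and *Ldha*. They are 10 of the 48587 genes in the count table, and all 10 were among the 18916 genes that passed the filter on low counts. The cells were primary VSMCs (vascular smooth muscle cells, the contractile cells of the arterial wall) grown out of the descending aorta of C57BL/6J mice aged 8 to 12 weeks, after the adventitia had been digested away and the endothelium scraped off, and used at passage 5 to 7 in medium with 15% FBS. Both groups were infected with lentivirus for 24 hours and collected 48 hours later. The shCTR group received a nontargeting hairpin, directed at a plant microRNA sequence, from a vector that also encodes GFP, and the shMettl14 group received a hairpin against *Mettl14*, a subunit of the complex that writes m6A (N6-methyladenosine) on mRNA. Each group had 2 poly-A mRNA-seq libraries, lettered A and B. The comparison addresses how loss of *Mettl14* mRNA affects the transcriptome of cultured VSMCs. Nothing in the labels says whether the letters mark separate cultures, animals or infections, so a p-value here measures only the spread between these libraries, which may be technical.

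Glycolysis splits glucose into pyruvate in the cytosol and yields ATP without oxygen. Glucose enters through facilitative transporters, is trapped by hexokinase, is committed to breakdown by phosphofructokinase, and after a series of steps leaves as pyruvate, which lactate dehydrogenase can turn into lactate. Many genes of the pathway are known targets of the hypoxia-inducible factors (HIFs), and glycolysis is known to rise when VSMCs leave the contractile state and proliferate.

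The libraries held 114343653 to 124815868 counts, and *Mettl14* followed the labels. *Mettl14* had 2050 and 2154 counts in shCTR A and B, against 546 and 568 counts in shMettl14 A and B. Its log2 fold change was -2.08 (SE 0.25), with an adjusted p of 1.71e-09 in DESeq2. In edgeR's quasi-likelihood test, used for the fold changes below, the Benjamini-Hochberg adjusted p came to 1 for *Mettl14* and for every other gene named here that passed the filter on low counts. The 6 VSMC markers summed to 6599 and 5660 CPM (counts scaled to library size, here with TMM factors) in shCTR A and B and to 4292 and 4684 CPM in shMettl14 A and B. Markers of other cells were present too: the 6 endothelial markers, led by *Cdh5* and *Pecam1*, summed to between 1183 and 1813 CPM. The 5 fibroblast markers summed to between 84.3 and 171 CPM. Most of that was *Dcn*, with 68 and 160 CPM in shCTR A and B and 72 and 120 CPM in shMettl14 A and B. By contrast *Pi16* had 0.472 to 0.968 CPM, *Dpt* 0.146 to 0.488 CPM and *Lum* 0 to 0.377 CPM. The 6 leukocyte markers summed to between 2.05 and 5.24 CPM, with *Adgre1*, *Itgam* and *Cd3e* among those at 0 in at least 1 library. The part of these cells in the results below was not tested, and in bulk RNA fewer cells of a type and less RNA per cell cannot be told apart.

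No member of the pathway set passed the test between shMettl14 and shCTR, and the differences were small. By fold change 8 of the 10 genes were lower and 2 higher with shMettl14, with a median log2 fold change of -0.13, against 0.01 over all genes tested. That median was -0.26 without shCTR B and -0.0025 without shMettl14 A, and 5 of the 10 were higher without shMettl14 A. Fits without 1 library leave the letters unbalanced between the groups. *Hk1*, *Aldoa*, *Pkm* and *Slc2a1* lay lower in both shMettl14 libraries than in both shCTR libraries. *Pgk1* and *Ldha* went in opposite directions in A and B. The groups overlapped for *Hk2*, *Pfkl*, *Pfkp* and *Pfkfb3*, whose fold changes were smaller than their standard errors in the fit without a block. With library totals in place of TMM factors *Hk2*, *Pfkl* and *Pgk1* had the opposite sign, so that 5 of the 10 were higher, and the median was -0.03 against 0.12 over all genes. None of the 10 had an adjusted p under 0.05, where edgeR called 0% of all genes tested and DESeq2 called 4 genes. None had an unadjusted p under 0.05 in edgeR without a block or in DESeq2 either, where 0.656% of all genes in edgeR were higher and 1.01% lower at that threshold. Both shMettl14 libraries lay below both shCTR libraries for 4 of the 10 genes, against 13.3% of all genes, and above them for 0 of the 10, against 14.7%. Within both letters 5 of the 10 were lower with shMettl14, against 27.7% of all genes, and 0 were higher, against 30%.

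**Figure D1:**
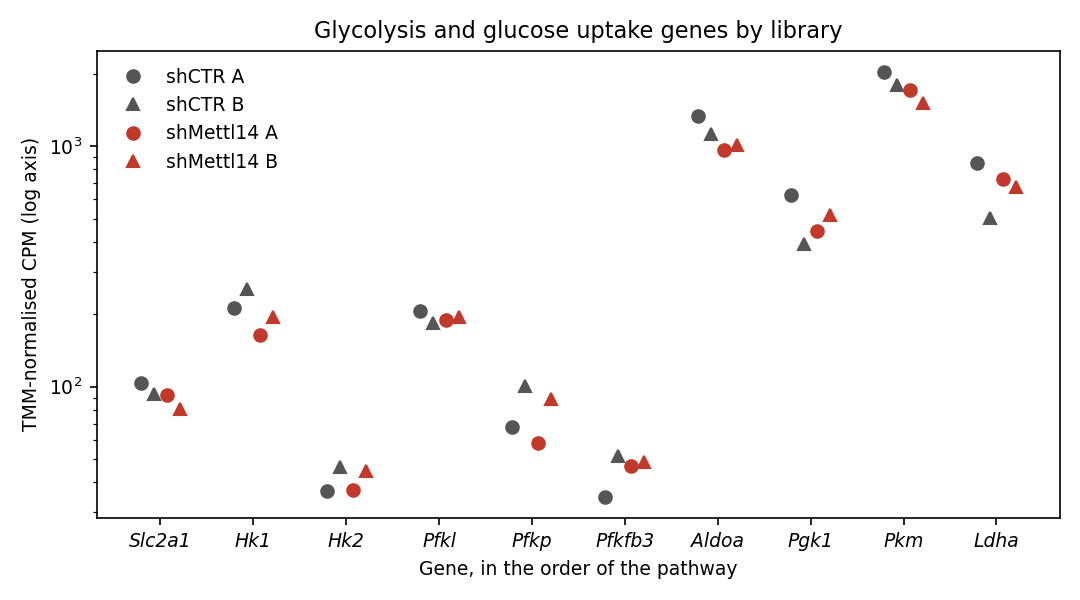
Level of each of the 10 genes in each library, as TMM-normalised CPM on a log axis, with 1 point per library (grey, shCTR; red, shMettl14; circle, A; triangle, B). *Hk1*, *Aldoa*, *Pkm* and *Slc2a1* have both red points below both grey ones, and for *Pgk1* and *Ldha* the shCTR B point is the lowest of the 4.

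The steps differ widely in mRNA level. Per kb of exon, the mean over the 4 libraries was 380 CPM for *Aldoa*, 353 for *Pkm*, 220 for *Pgk1* and 208 for *Ldha*. These enzymes act after phosphofructokinase. The transporter and the first kinases were lower, with 29.0 CPM per kb for *Pfkl*, 26.4 for *Slc2a1* and 24.2 for *Hk1*, and *Hk2*, *Pfkfb3* and *Pfkp* had 6.9, 6.0 and 5.9 CPM per kb. The order within each of these groups is not the same in every library: *Pkm* lies above *Aldoa* and *Ldha* above *Pgk1* in shMettl14 A, and *Hk1* lies above *Slc2a1* in shCTR B and below it in shCTR A. Exon length was the union of annotated exons, so a gene with long unused exons is given too low a level. Summed over the 10 genes the level was 5505 and 4546 CPM in shCTR A and B and 4442 and 4353 CPM in shMettl14 A and B. These sums are set mainly by *Pkm* and *Aldoa*, and the gap between the shCTR libraries is wider than that between shCTR B and either shMettl14 library.

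*Slc2a1* (GRCm38 chr4:119108711-119137983, plus strand) encodes GLUT1, the transporter that carries glucose into most cells at rest. Its level was 104 and 93.1 CPM in shCTR A and B and 92.5 and 80.9 CPM in shMettl14 A and B. The groups do not overlap, though shMettl14 A lies just under shCTR B, and B was below A within each hairpin. The log2 fold change was -0.18 (SE 0.20, 95% interval -0.69 to 0.32), and the log2 ratio was -0.17 within A and -0.20 within B. A small share of its exon bases, 2.99%, lies under *Gm12868* on the other strand, which had 39 to 60 counts.

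The hexokinases add the first phosphate to glucose. *Hk1* (chr10:62268855-62379908, minus strand), the constitutive form of most tissues, had 213 and 255 CPM in shCTR and 164 and 195 CPM in shMettl14, A before B. Both shMettl14 libraries were below both shCTR libraries, and the ratio was nearly the same in the letters, -0.38 within A and -0.39 within B on the log2 scale. This was the largest fold change of the 10 in the fit on all libraries. Its log2 value was -0.38 (SE 0.21, 95% interval -0.93 to 0.17). Without shCTR B the value was -0.25 for *Hk1*, -0.44 for *Aldoa* and 0.45 for *Pfkfb3*. *Hk2* (chr6:82725025-82774454, minus strand), the inducible form that is abundant in muscle and in many tumours, had 36.8 and 46.3 CPM in shCTR and 37.0 and 44.6 CPM in shMettl14. Its groups overlap almost completely, B was above A under each hairpin, and the log2 fold change was -0.03 (SE 0.23, 95% interval -0.62 to 0.57).

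The ratio of the hexokinases was higher in both shMettl14 libraries than in both shCTR libraries. Per kb, *Hk2* stood at 0.247 and 0.259 of *Hk1* in shCTR A and B and at 0.322 and 0.327 in shMettl14 A and B. The share of *Hk2* in the sum of both was therefore 19.8% and 20.6% in shCTR and 24.4% and 24.7% in shMettl14. The log2 ratio was -1.98 ± 0.05 (SD, n = 2) in shCTR and -1.62 ± 0.02 (SD, n = 2) in shMettl14, a difference of 0.36 that was 0.39 within A and 0.34 within B. This ratio is taken within a library and does not depend on the scaling between libraries. The gap between groups is larger than the spread within either, but with 2 libraries a group the two-sided exact permutation test cannot go below 0.333, and p was 0.333 here (1 after Benjamini-Hochberg adjustment over 6 ratios).

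Phosphofructokinase makes the committing step, and its subunits come from separate genes. *Pfkl* (chr10:77986947-78010083, minus strand), the liver-type subunit, had 206 and 184 CPM in shCTR A and B and 189 and 195 CPM in shMettl14 A and B. It was the steadiest gene of the set, with a 1.12-fold range over the 4 libraries and a log2 fold change of -0.03 (SE 0.19, 95% interval -0.51 to 0.46). *Pfkp* (chr13:6579768-6648777, minus strand), the platelet-type subunit, had 68.0 and 101 CPM in shCTR and 58.5 and 88.7 CPM in shMettl14. Its range was the widest of the 10, 1.72-fold, and followed the letters: B was above A by 0.56 on the log2 scale in shCTR and by 0.60 in shMettl14. Within each letter shMettl14 was the lower, with log2 ratios of -0.22 and -0.18, but the groups overlap and the log2 fold change was -0.20 (SE 0.32, 95% interval -1.01 to 0.62). Of its exon bases 5.58% lie under *Pitrm1* on the other strand, which had 7208 to 10083 counts, and whether the counting used strand is not given in the sources used here.

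*Pfkfb3* (chr2:11471433-11554077, minus strand) encodes a bifunctional enzyme that makes fructose 2,6-bisphosphate, the activator of phosphofructokinase. Its level was 34.8 CPM in shCTR A and lay at 51.5, 46.8 and 48.4 CPM in shCTR B, shMettl14 A and shMettl14 B. The low library is thus shCTR A alone, and the log2 ratio was 0.43 within A and -0.09 within B. The log2 fold change was 0.14 (SE 0.26, 95% interval -0.52 to 0.80), and it was -0.11 without shCTR A.

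Per kb, *Pfkl* made 48.9% to 55.0% of the phosphofructokinase counts, *Pfkp* 8.35% to 13.6% and the muscle-type *Pfkm* the rest, with 36.0% and 36.5% in shCTR A and B and 37.6% and 40% in shMettl14 A and B. The *Pfkm* shares of shMettl14 were thus both above those of shCTR, and both *Pfkp* shares of letter B were above both of letter A. The difference of the log2 ratio was -0.18 for *Pfkp* to *Pfkl* and 0.12 for *Pfkm* to *Pfkl*, each with an exact permutation p of 0.667. For *Pfkfb4*, a second gene of the fructose 2,6-bisphosphate enzymes, the level per kb was 0.614 and 0.164 of *Pfkfb3* in shCTR A and B and 0.471 and 0.260 in shMettl14 A and B. The difference between letters was therefore larger than that between hairpins, which was 0.14 on the log2 scale (exact permutation p = 1).

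**Figure D2:**
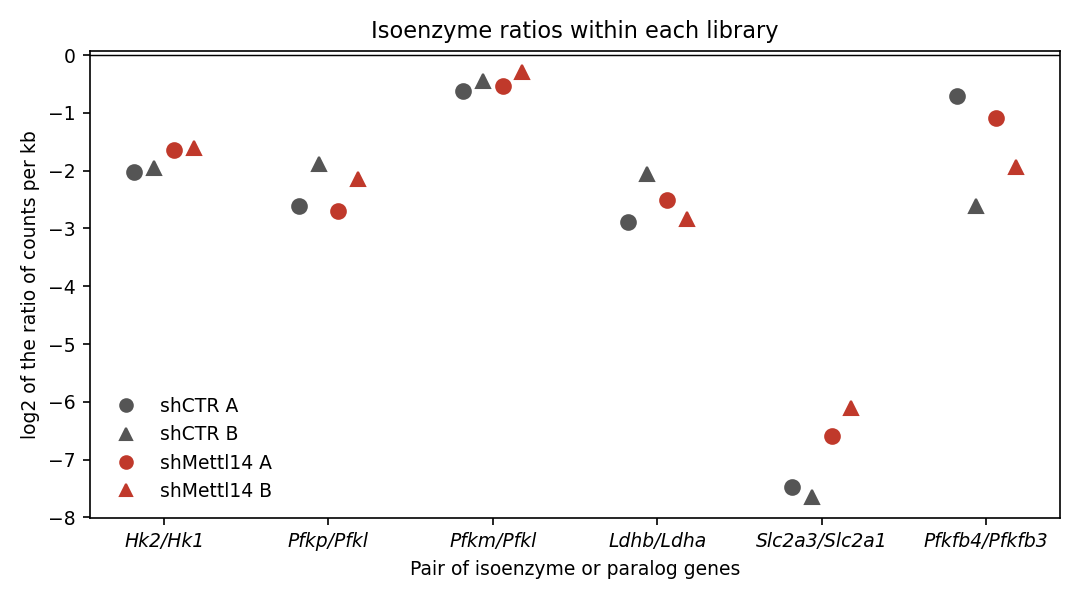
The log2 ratio of counts per kb for 6 pairs of isoenzyme or paralog genes within each library, 1 point per library (grey, shCTR; red, shMettl14; circle, A; triangle, B). The groups are apart for *Hk2*/*Hk1* and *Slc2a3*/*Slc2a1* and overlap for the other 4 pairs.

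Aldolase splits the 6-carbon sugar, and *Aldoa* (chr7:126795234-126800751, minus strand) is its muscle-type gene. *Aldoa* had 1337 and 1122 CPM in shCTR A and B and 963 and 1007 CPM in shMettl14 A and B. Both shMettl14 libraries were lower, by more in A (log2 ratio -0.47) than in B (-0.16). The log2 fold change was -0.32 (SE 0.20, 95% interval -0.82 to 0.18). *Pkm* (chr9:59656368-59679375, plus strand), the pyruvate kinase gene that makes the last ATP of the pathway, had 2035 and 1796 CPM in shCTR and 1720 and 1505 CPM in shMettl14. Here the letters were alike, with log2 ratios of -0.24 and -0.26, and the log2 fold change was -0.25 (SE 0.19, 95% interval -0.75 to 0.25). Counts per gene cannot tell the M1 and M2 splice forms of *Pkm* apart. The annotated gene *Gm49759* overlaps 15.3% of the *Pkm* exon bases on the same strand, and a near copy, *Gm6560*, drew at most 0.173% as many counts as *Pkm*.

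Unlike *Aldoa* and *Pkm*, *Pgk1* and *Ldha* had ratios of opposite sign in the letters. *Pgk1* (chrX:106187100-106203699, plus strand), which encodes the phosphoglycerate kinase that makes the first ATP, had 624 and 393 CPM in shCTR A and B and 445 and 516 CPM in shMettl14 A and B. *Ldha* (chr7:46841475-46855627, plus strand), the lactate dehydrogenase subunit that favours lactate formation, had 849 and 504 CPM in shCTR and 728 and 674 CPM in shMettl14. In each gene shCTR A was the highest library and shCTR B the lowest, with both shMettl14 libraries between them. Among other genes of steps after phosphofructokinase, *Eno1* (enolase) and *Tpi1* (triosephosphate isomerase) showed the same order. *Eno1* had 1498 and 830 CPM in shCTR A and B and 1110 and 898 CPM in shMettl14 A and B. *Tpi1* had 428 and 335 CPM and 378 and 389 CPM. *Pgam1* (phosphoglycerate mutase) did not, and was highest in shCTR B, with 187 and 227 CPM and 168 and 157 CPM. Nor did *Gapdh*, which was lower in both shMettl14 libraries than in both shCTR libraries. B was below A by 0.67 for *Pgk1* and by 0.75 for *Ldha* on the log2 scale in shCTR, whereas in shMettl14 the difference of B from A was 0.22 and -0.11. The shMettl14 over shCTR ratio therefore changed sign, from -0.49 within A to 0.39 within B for *Pgk1* and from -0.22 to 0.42 for *Ldha*. Their log2 fold changes were -0.08 (SE 0.28, 95% interval -0.81 to 0.65) and 0.05 (SE 0.30, 95% interval -0.72 to 0.82). Without shCTR A the value for *Pgk1* was 0.29 and without shMettl14 A it was 0.02, and for *Ldha* it was -0.28 without shCTR B and -0.01 without shMettl14 A. The other lactate dehydrogenase subunit gene, *Ldhb*, stood at 0.135 and 0.239 of *Ldha* per kb in shCTR A and B and at 0.177 and 0.140 in shMettl14 A and B, a difference of -0.19 on the log2 scale (exact permutation p = 1). Each gene has 4 annotated near copies, of which 2 are in the count table, and these drew at most 0.0942% as many counts as *Pgk1* and 0.0135% as many as *Ldha*.

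**Figure D3:**
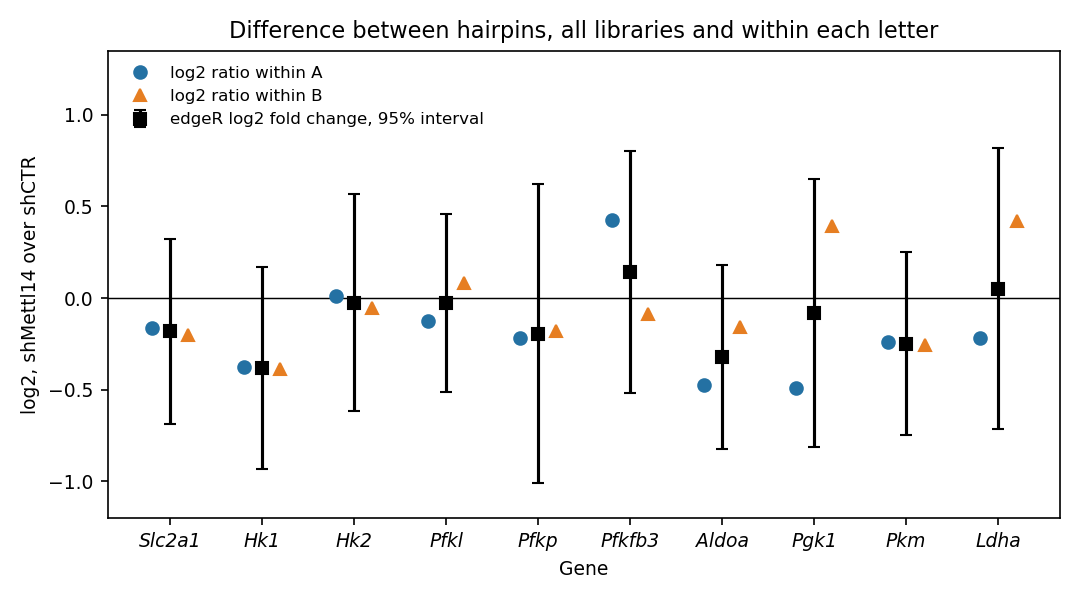
The edgeR log2 fold change of shMettl14 over shCTR for each of the 10 genes (black square, with its 95% interval), beside the log2 ratio within letter A (blue circle) and within letter B (orange triangle). All 10 intervals, from the fit without a block, hold 0. The letters are on opposite sides of 0 for *Hk2*, *Pfkl*, *Pfkfb3*, *Pgk1* and *Ldha*.

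All 10 of the 95% intervals, from the fit without a block, hold 0. Their lowest bound was -1.01 (*Pfkp*) and their highest 0.82 (*Ldha*) on the log2 scale. Each interval rests on a spread moderated over all genes tested. In that fit the fold change was beyond its own SE for 3 genes, *Hk1*, *Aldoa* and *Pkm*. With a replicate block this also held for *Slc2a1* (-0.18, SE 0.15) and *Pfkp* (-0.20, SE 0.15). The mean difference between letters was larger than that between hairpins for 6 of the 10, against 72.2% of all genes tested. In the edgeR fit with a replicate block *Hk1* had an unadjusted p of 0.0315 and an adjusted p of 0.445. It was the 1 member of the 10 under 0.05 unadjusted in that fit, against 10.3% of all genes tested.

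The promoters of *Ldha* and *Pgk1*, the members that lay furthest lower in shCTR B than in shCTR A, are set here beside those of *Pfkp* and *Pfkfb3*, the members that lay furthest higher in it. Each run is 250 bases before to 50 after a RefSeq start on GRCm38.p6, 5′ to 3′ on the gene's strand, with ACGTG and GCGTG (the core of the hypoxia response element, to which HIFs bind) in capitals as read on either strand, as CACGT and CACGC where they are on the other one, and as CACGTG where ACGTG overlaps itself.

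Ldha (chr7:46845554-46845853, plus strand): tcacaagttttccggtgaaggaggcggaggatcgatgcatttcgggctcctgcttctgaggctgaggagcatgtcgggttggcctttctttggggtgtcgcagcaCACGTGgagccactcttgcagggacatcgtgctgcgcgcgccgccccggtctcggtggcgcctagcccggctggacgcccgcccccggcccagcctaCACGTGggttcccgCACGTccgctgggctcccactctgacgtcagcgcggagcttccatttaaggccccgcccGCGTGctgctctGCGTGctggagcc

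Pgk1 (chrX:106186850-106187149, plus strand): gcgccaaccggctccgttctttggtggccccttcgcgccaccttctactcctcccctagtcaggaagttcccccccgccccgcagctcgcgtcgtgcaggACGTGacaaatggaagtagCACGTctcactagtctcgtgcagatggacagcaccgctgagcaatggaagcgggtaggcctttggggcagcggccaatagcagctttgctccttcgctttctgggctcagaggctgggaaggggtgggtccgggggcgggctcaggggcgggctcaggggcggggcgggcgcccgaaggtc

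Pfkfb3 (chr2:11502041-11502340, minus strand): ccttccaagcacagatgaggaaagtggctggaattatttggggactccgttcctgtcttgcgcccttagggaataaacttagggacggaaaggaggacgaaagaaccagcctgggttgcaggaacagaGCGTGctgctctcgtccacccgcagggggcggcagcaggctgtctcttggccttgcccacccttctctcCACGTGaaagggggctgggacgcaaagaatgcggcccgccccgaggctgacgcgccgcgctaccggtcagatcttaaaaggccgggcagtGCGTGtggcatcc

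Pfkp (chr13:6648722-6649021, minus strand): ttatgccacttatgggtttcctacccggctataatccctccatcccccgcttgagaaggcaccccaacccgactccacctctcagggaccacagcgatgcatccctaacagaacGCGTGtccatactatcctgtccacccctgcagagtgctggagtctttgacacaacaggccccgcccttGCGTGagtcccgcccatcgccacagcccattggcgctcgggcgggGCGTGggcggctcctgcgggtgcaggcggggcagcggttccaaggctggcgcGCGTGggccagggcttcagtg

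The *Ldha* run holds ACGTG at 3 places, of which 2 are the palindrome CACGTG, all within 145 bases before the start. The bases after this start matched no GENCODE M21 transcript. The other RefSeq window of *Ldha* (chr7:46846832-46847131), whose bases after the start did match one, holds no ACGTG and has GCGTG at 2 places. The *Pgk1* run holds it at 2 places, whose first bases lie 150 and 131 bases before the start. The *Pfkfb3* run holds it at 1 place, again as CACGTG, 53 bases before the start, its other window (chr2:11553880-11554179) holds it at 1 place and no GCGTG, and the *Pfkp* run holds only GCGTG, at 4 places. All 10 genes matched a RefSeq promoter, with 16 windows between them. ACGTG on either strand was in 10 of these 16 windows, against 19.6% of 32851 windows of all genes, and in at least 1 window of 8 of the 10 genes, against 21.8% of 27025 genes. GCGTG was in a window of 6 of the 10 genes, against 35.2% of genes, and 1 of these words or the other was in a window of all 10, against 46.7%. The members' windows were also richer in G and C, with a median of 64.8% against 52.7% and a median of 22 CG dinucleotides against 7, and both words hold CG. A match is a description of the letters and not of binding. *Pfkp* and *Pfkl* were the genes without ACGTG. Of the genes lower in shCTR B than in shCTR A, *Slc2a1*, *Aldoa*, *Pgk1*, *Pkm* and *Ldha* had ACGTG in a window and *Pfkl* had none. For *Pkm*, as for *Ldha*, ACGTG lay only in a window whose bases after the start matched no GENCODE M21 transcript. The other window of *Pkm* (chr9:59656326-59656625) holds neither word. Of the genes higher in shCTR B, *Hk1*, *Hk2* and *Pfkfb3* had ACGTG and *Pfkp* had none. *Hk1* had it only after the start, with first bases at 8 and 17. Whether the word bears on the order of the shCTR libraries was not tested. Near the stop codon m6A is known to be common. GGACT lay within 200 bases of the stop codon in 1 annotated transcript each of 5 of the 10 genes, against 39.1% of 14346 coding genes tested. These were *Slc2a1*, *Hk1*, *Hk2*, *Pfkl* and *Pfkfb3*. This group holds both *Hk1*, with the largest fold change in the fit on all libraries, and *Pfkl*, the steadiest gene.

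The rest of glycolysis was counted from a list of 22 further genes, of which 19 were tested. No gene of it passed at an adjusted p under 0.05, and at an unadjusted p 1 was higher and 1 lower. *Gapdh*, the dehydrogenase between aldolase and phosphoglycerate kinase, had 2618 and 2502 CPM in shCTR A and B and 1789 and 1624 CPM in shMettl14 A and B. Its groups are far apart relative to their spread, and its log2 fold change was -0.58 (SE 0.18, 95% interval -1.05 to -0.12), with -0.55 within A and -0.62 within B. *Slc2a3*, which encodes the high-affinity glucose transporter GLUT3, had 137 and 104 counts in shCTR and 234 and 316 counts in shMettl14, a log2 fold change of 1.02 (SE 0.40, 95% interval 0.0040 to 2.04). Per kb it stood at only 0.00563 and 0.00501 of *Slc2a1* in shCTR and at 0.0103 and 0.0145 in shMettl14, and *Slc2a1* was the more abundant transporter mRNA in all 4 libraries. The difference of that log2 ratio was 1.21 (exact permutation p = 0.333, the smallest possible). By fold change 8 genes of the list were higher and 11 lower, with a median of -0.12, and their summed level was 5400 and 4619 CPM in shCTR and 3981 and 3640 CPM in shMettl14. *Hk3* and *Pklr*, isoenzyme genes of leukocytes and of liver and red cells, were among those that did not pass the filter on low counts.

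Lists of neighbouring pathways held no gene with an unadjusted edgeR p under 0.05 in the fit without a block. Among 14 genes for the fates of pyruvate and lactate, 8 were higher and 6 lower by fold change, with a median of 0.05. *Pdha1*, the highest in CPM and a subunit of pyruvate dehydrogenase, had 151 and 141 CPM in shCTR A and B and 173 and 144 CPM in shMettl14 A and B, a log2 fold change of 0.12 (SE 0.20). *Pdk4*, which encodes a kinase that turns pyruvate dehydrogenase off, had 27.7 and 27.4 CPM in shCTR and 21.3 and 16.6 CPM in shMettl14, a log2 fold change of -0.54 (SE 0.23). Among 7 genes of the pentose phosphate branch, which draws on the product of hexokinase, 2 were higher and 5 lower, with a median of -0.20. *Tkt*, transketolase, had the highest CPM of them, not corrected for length, with 289 and 303 CPM in shCTR and 230 and 238 CPM in shMettl14, a log2 fold change of -0.34 (SE 0.18).

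Of 12 genes of the HIF pathway and of other regulators of glucose metabolism 7 were higher and 5 lower, with a median log2 fold change of 0.01. *Epas1*, which encodes HIF-2α, had 221 and 336 CPM in shCTR A and B and 242 and 264 CPM in shMettl14 A and B, a log2 fold change of -0.14 (SE 0.27) with opposite signs in the letters. *Myc*, a regulator of many glycolysis genes, had 74.5 and 109 CPM in shCTR and 74.9 and 84.5 CPM in shMettl14, a log2 fold change of -0.20 (SE 0.26). Of 14 HIF targets outside glycolysis 6 were higher and 8 lower, with a median of -0.01. The highest in CPM, *P4ha1*, a subunit of collagen prolyl hydroxylase, had 497 and 626 CPM in shCTR and 384 and 494 CPM in shMettl14, a log2 fold change of -0.36 (SE 0.24). *Ero1l*, an oxidase of the endoplasmic reticulum, had 140 and 206 CPM in shCTR and 99.8 and 144 CPM in shMettl14, a log2 fold change of -0.50 (SE 0.31).

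**Figure D4:**
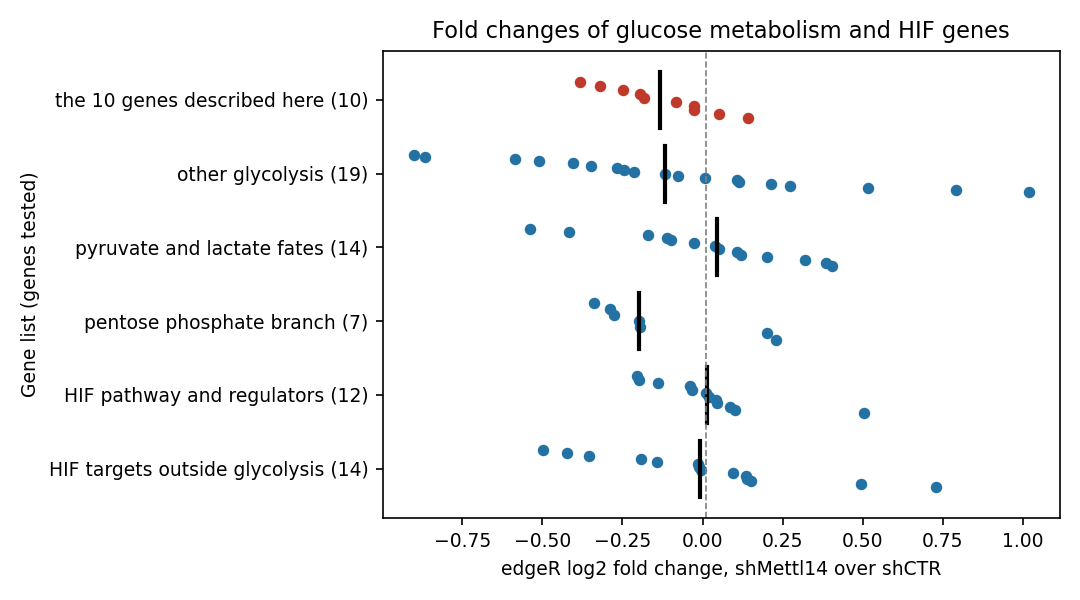
The edgeR log2 fold change of shMettl14 over shCTR for each tested gene of 6 lists, 1 point per gene, with the median of the list as a black bar and the median of all genes tested as a dashed line. The 10 genes described here lie between -0.38 and 0.14, a narrower range than that of any of the other 5 lists.

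Markers of cell types differed between the libraries as well. Of the 6 VSMC markers 5 were lower with shMettl14 within both letters and *Myocd* was split, with *Acta2*, smooth muscle actin, at 3547 and 2799 CPM in shCTR A and B and at 2171 and 2073 CPM in shMettl14 A and B (log2 fold change -0.58, SE 0.21, and the marker with an unadjusted p under 0.05). The endothelial sum was highest in shCTR B, at 1813 CPM, against 1183, 1238 and 1331 CPM in shCTR A, shMettl14 A and shMettl14 B. In shCTR B *Pgk1*, *Ldha* and *Pfkl* were at their lowest and *Hk1*, *Hk2*, *Pfkp* and *Pfkfb3* at their highest. The endothelial sum is mostly *Cdh5* and *Pecam1*, and 5 of the 6 endothelial markers were highest in shCTR B. The exception was *Tie1*, with 171 CPM in shCTR A and 136 CPM in shCTR B. The 5 proliferation markers summed to 181 and 171 CPM in the A libraries of shCTR and shMettl14 and to 329 and 312 CPM in the B libraries, the same split as *Pfkp* and *Hk2*. *Mki67* and *Top2a* make up most of that sum, and *Cdk1* had 32.7 CPM in shCTR A and 28.0 CPM in shCTR B.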

How the data were processed

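Poly-A–enriched mRNA of VSMCs (4 libraries, 2 shCTR and 2 shMettl14) was sequenced with a strand-specific kit. According to the study's methods and the submitters' processing notes, the authors used STAR for alignment to mm10 and featureCounts for assigning reads to genes. Raw counts of 48587 genes were deposited. Versions, the strand setting and the treatment of reads with several places are not given in the sources used here.

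Totals were 114343653 to 124815868 counts, at which 3 counts are at most 0.0262 CPM. Differences were tested with edgeR 4.0.16 in R 4.3.3 (TMM, filterByExpr, robust quasi-likelihood fit without a block, Benjamini-Hochberg over 18916 genes), after the script was tested on simulated data. The standard error is the log2 fold change over the square root of F. Within-letter ratios used log2 CPM with a prior count of 2. Isoenzyme ratios used exact permutation tests. Gene places came from GENCODE M21, promoters from RefSeq (GRCm38.p6). Near copies were found with blastn 2.17.0. Figures were drawn with matplotlib 3.10.9.

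Named genes were the 10 genes, *Mettl14* and, of each list, those with an unadjusted p under 0.05 or else the highest in CPM and the one with the largest fold change among those with a mean of at least 10 CPM. *Pfkm*, *Pfkfb4* and *Ldhb* were named for the isoenzyme ratios. Markers, *Hk3*, *Pklr*, *Eno1*, *Tpi1*, *Pgam1*, *Prkaa2* and *Stc2* were named after their values were seen. The members and lists were chosen with earlier results of these data known. Alternatives were DESeq2 1.42.0, other scalings, other count filters, a replicate block and each library left out. Some genes of the lists are not reported here.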

Additional observations from a re-analysis of the deposited data

How the results depend on the processing

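No alternative gave any of the 10 genes an adjusted p under 0.05, and of 110 alternative fold changes 96 kept their direction, among them all of those of *Slc2a1*, *Hk1*, *Aldoa* and *Pkm*, while 14 changed sign. Over all genes edgeR called 0, DESeq2 4, the fit with a replicate block 9 and the fit without shCTR B 1, all lower, and an unadjusted p under 0.05 was found for 315 genes in edgeR and for 1941 with the block. Library totals, a scaling added after seeing the data, moved the median of all genes from 0.01 to 0.12. With it 5 of the 10 genes were higher, 2 within both letters, the members' median was -0.025, and *Hk2* (0.089), *Pfkl* (0.084) and *Pgk1* (0.023) changed sign. Over fits that each left out 1 library, the number of higher genes ran from 2 to 5 (5 without shMettl14 A) and the median log2 fold change from -0.26 (without shCTR B) to -0.0025 (without shMettl14 A). In these fits the log2 fold change ran from -0.18 to 0.15 for *Hk2* and from -0.52 to 0.11 for *Pfkp*, both above 0 without shCTR B or shMettl14 A, from -0.11 to 0.061 for *Pfkl* and from -0.38 to 0.29 for *Pgk1*, both above 0 without shCTR A or shMettl14 A, from -0.11 to 0.45 for *Pfkfb3*, below 0 without shCTR A, and from -0.28 to 0.48 for *Ldha*, below 0 without shCTR B or shMettl14 A. It ran from -0.014 to 0.25 for *Pdha1* (below 0 without shMettl14 A), from -0.41 to 0.19 for *Epas1* and from -0.45 to 0.093 for *Myc* (above 0 without shCTR B). The difference of the log2 ratio ran from -0.54 to 0.19 for *Pfkp*/*Pfkl*, from -0.60 to 0.22 for *Ldhb*/*Ldha* and from -0.81 to 1.09 for *Pfkfb4*/*Pfkfb3*, with the opposite sign without shCTR B and, except for *Ldhb*/*Ldha*, without shMettl14 A. Without a change of sign the log2 fold change ran from -0.28 to -0.085 for *Slc2a1*, from -0.51 to -0.25 for *Hk1*, from -0.44 to -0.18 for *Aldoa*, from -0.35 to -0.15 for *Pkm*, from -0.78 to -0.20 for *Ero1l*, from -0.54 to -0.18 for *P4ha1*, from -0.73 to -0.37 for *Pdk4* and, as a log2 ratio, from 0.0049 to 0.24 for *Pfkm*/*Pfkl*. The cause was not tested. In the fit with a replicate block the log2 fold change was -0.38 for *Hk1* (adjusted p = 0.445 in edgeR) and -2.08 for *Mettl14* (adjusted p = 0.00393). *Hk1* was the 1 member of the 10 with an unadjusted p under 0.05 there, against 10.3% of all 18916 genes tested. In that fit 6 of the 19 tested genes of the other glycolysis list had an unadjusted p under 0.05, against the same 10.3% of all genes. Of the neighbouring pathways 8 genes did. These were 3 of 14 for pyruvate and lactate, 0 of 7 for the pentose phosphate branch, 1 of 12 for the HIF pathway and regulators and 4 of 14 HIF targets. The lowest adjusted p in edgeR was 0.269 in the other glycolysis list and 0.292 in the neighbouring pathways. Same-lettered libraries deviated together across genes (r = 0.58 over 2 pairs). The smallest count of a member was 3958.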
